A study of Mus musculus with 12 samples.

Results

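The 9 genes described here encode transcription factors of 2 families, the Krüppel-like factors Klf3, Klf4, Klf5, Klf6 and Klf15, and the Myc network proteins Myc, Mycn, Max and Mxd1. They were taken by name, and all 9 of 9 had a row in each of the 12 count tables, among 23366 gene rows in all. All 9 passed the filter on low counts, which left 15342 genes for testing.

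Krüppel-like factors bind GC-rich and CACCC-type DNA through zinc fingers at the carboxyl end, and the family holds both activators and repressors. In intestinal epithelium Klf5 is known from proliferating crypt cells, and Klf4 from villus cells that have left the cell cycle and from goblet cells. Myc and Mycn drive growth and division as dimers with Max on the E-box CACGTG. Mxd1 competes with Myc for Max, represses the same sites and is known from differentiating cells.

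RNA-seq compared 4 groups of 3 libraries from mouse small intestine, all of a mixed C57BL/6 and CD1 strain. E12.5 and E14.5 were embryonic epithelium of those embryonic days, gated on the epithelial protein EpCAM and against CD31 (endothelium) and CD45 (blood cells), with each E12.5 library from a pool of 20 embryos. ISC were adult intestinal stem cells with high EGFP from Lgr5EGFP-Cre-ERT males, in which EGFP reports the stem-cell receptor gene Lgr5. AE were villus cells of such males, labelled enterocytes and sorted by the same surface proteins as the embryonic cells, so that other EpCAM-positive villus cells could enter. Adult mice were at postnatal day 60 and gave 1 gut per library. The age label of all 6 embryonic libraries names the other stage than the title. Titles were followed, and the sign of the comparison between E14.5 and E12.5 rests on them.

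Libraries held 12587626 to 45190749 gene counts. Levels below are CPM, the usual counts scaled to a common library size, with sizes adjusted by the trimmed mean of M values, and a gene was called where edgeR's quasi-likelihood test gave an adjusted p under 0.05 over all genes tested. Stem-cell markers summed to between 6462 and 7042 CPM in ISC and to at most 718 CPM elsewhere, and enterocyte markers summed to between 21455 and 39643 CPM in AE and to at most 1412 CPM elsewhere. AE also held 7 goblet-cell markers at a sum of 17037 to 27673 CPM, and ISC held them at 1213 to 1640 CPM. The 5 Paneth-cell markers summed to 2216 to 3761 CPM in ISC and 2697 to 6507 CPM in AE. In the embryonic groups they summed to at most 9.99 CPM. Reads with several alignments were listed only in E12.5 and ISC and stood at 0 in E14.5 and AE. A processing batch along that line cannot be told apart from the group in any comparison that crosses it. The comparison of ISC with E12.5, and that of AE with E14.5, stay on 1 side of the line. Of the 50-base stretches of the 9 genes' transcripts, at most 3.48%, in Klf3, occur in another gene, and none do in Klf6, Klf15, Myc, Mycn or Mxd1.

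Mycn was an embryonic transcript, Myc peaked in the adult stem cells, and Mxd1 and Max were highest on the villus. Klf3, Klf4, Klf5 and Klf6 were all higher in both adult groups than in both embryonic groups, with Klf4 alone among these rising more than 4-fold again from stem cell to villus. Over the 6 comparisons every called fall belonged to Myc or Mycn.

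**Figure D1:**
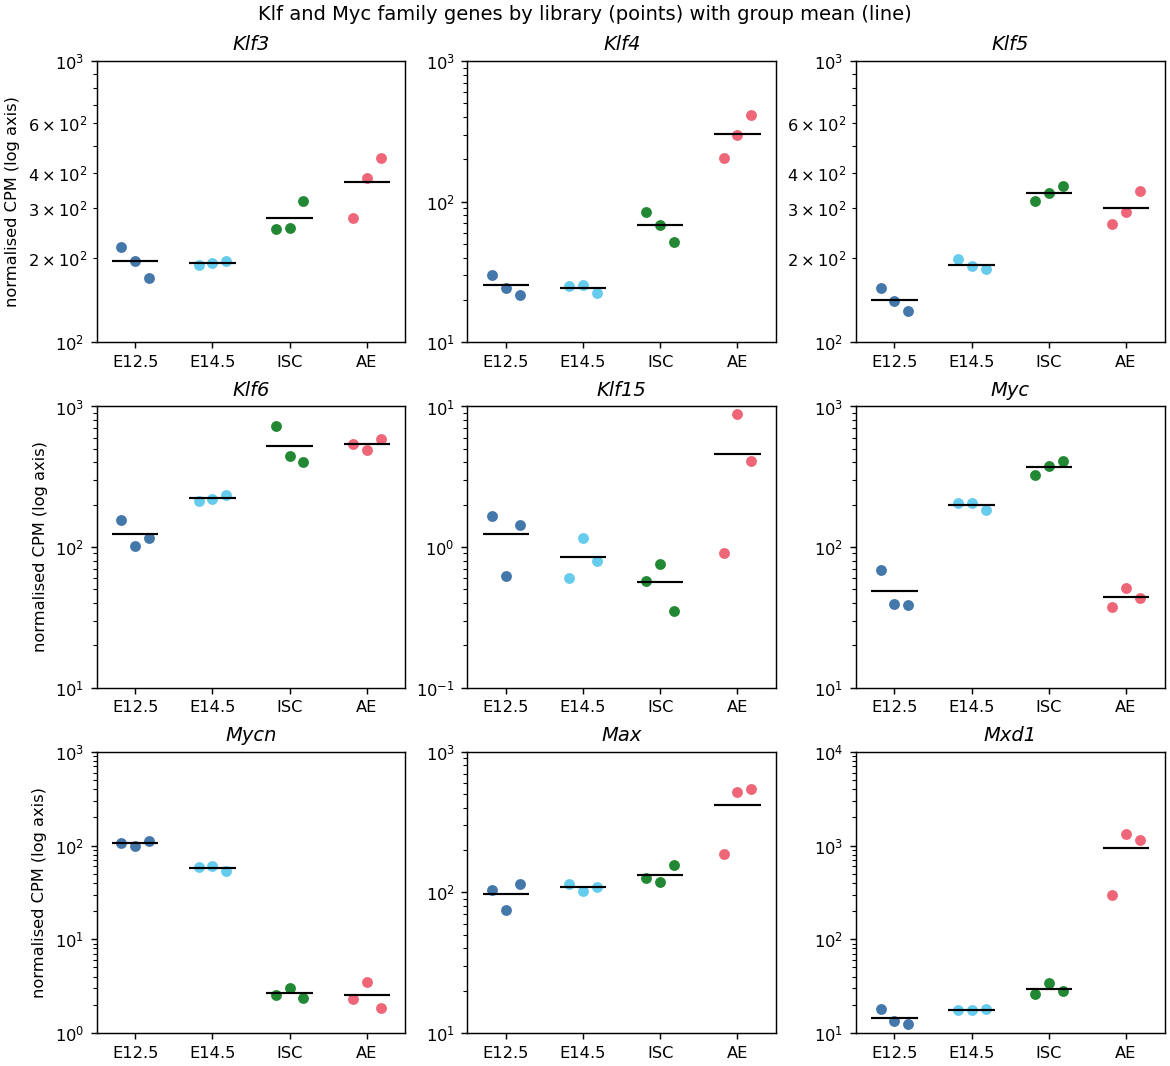
Normalised CPM on a log axis for each of the 9 genes in each library, with points for libraries 1 to 3 from left to right within a group and a line at the group mean. Mycn stands near 100 CPM in E12.5 and below 4 CPM in every adult library, and Mxd1 stands below 35 CPM in every library outside AE.

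Mycn, the paralog of Myc best known from embryonic progenitors, stood at 106, 98.3 and 111 CPM in E12.5 replicates 1, 2 and 3, and at 59.4, 60.4 and 53.7 CPM in E14.5. It stood at 2.53, 3.05 and 2.35 CPM in ISC and at 2.28, 3.51 and 1.83 CPM in AE. The 4 groups thus formed 3 steps without overlap, the lowest shared by both adult groups. Mycn fell 1.82-fold from E12.5 to E14.5 (adjusted p = 0.000159, edgeR) and 21.9-fold from E14.5 to ISC (adjusted p = 5.42e-11, edgeR). Within the pair of groups that list multiply aligned reads alike, it was 39.8-fold lower in ISC than in E12.5, and it was 22.7-fold lower in AE than in E14.5. Between AE and ISC the log2 difference was -0.05 with a standard error of 0.20 and was not called (adjusted p = 0.833, edgeR).

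Myc, the oncogene homologue and a target of Wnt signalling in crypts, moved otherwise. It stood at 69.0, 39.1 and 38.9 CPM in E12.5, at 205, 205 and 183 CPM in E14.5, at 324, 377 and 409 CPM in ISC, and at 37.4, 50.8 and 43.5 CPM in AE. E12.5 and AE overlapped at the bottom, and E14.5 and ISC stood above them without overlap. Myc rose 4.03-fold from E12.5 to E14.5 (adjusted p = 2.55e-06, edgeR) and 1.87-fold from E14.5 to ISC (adjusted p = 0.00103, edgeR), and it fell 8.45-fold from ISC to AE (adjusted p = 2.14e-08, edgeR). Within groups that list multiply aligned reads alike, Myc was 7.53-fold higher in ISC than in E12.5 (adjusted p = 1.62e-08, edgeR). It was 4.52-fold lower in AE than in E14.5 (adjusted p = 2.24e-07, edgeR). AE and E12.5 differed by -0.17 ± 0.20 (SE) on the log2 scale, which was not called (adjusted p = 0.445, edgeR). E12.5 replicate 1 stood above the other two, and without it the first rise was 5.08-fold.

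Per kilobase of exon, which allows the paralogs to be set side by side, Mycn made up 64.5% ± 7.60 (SD, n = 3) of the Myc plus Mycn total in E12.5 and 19.4% ± 0.119 in E14.5. In the adult its share was 0.592% ± 0.105 in ISC and 4.51% ± 1.05 in AE. The total itself was 50.0 ± 6.87 CPM per kilobase in E12.5 and 90.3 ± 5.75 in E14.5, against 137 ± 15.8 in ISC and 16.9 ± 2.68 in AE. The larger of the pair thus changed from Mycn to Myc between the embryonic stages, while the sum of both rose up to the stem cell and was lowest on the villus. The log2 ratio of Mycn to Myc, with 0.1 CPM added to each, was 1.15 ± 0.47 (SD, n = 3) in E12.5 and -1.77 ± 0.01 in E14.5, against -7.08 ± 0.27 in ISC and -4.10 ± 0.36 in AE. The 4 groups differed in it by an exact permutation test over libraries (p = 6.49e-05, the smallest that 369600 partitions can give).

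**Figure D2:**
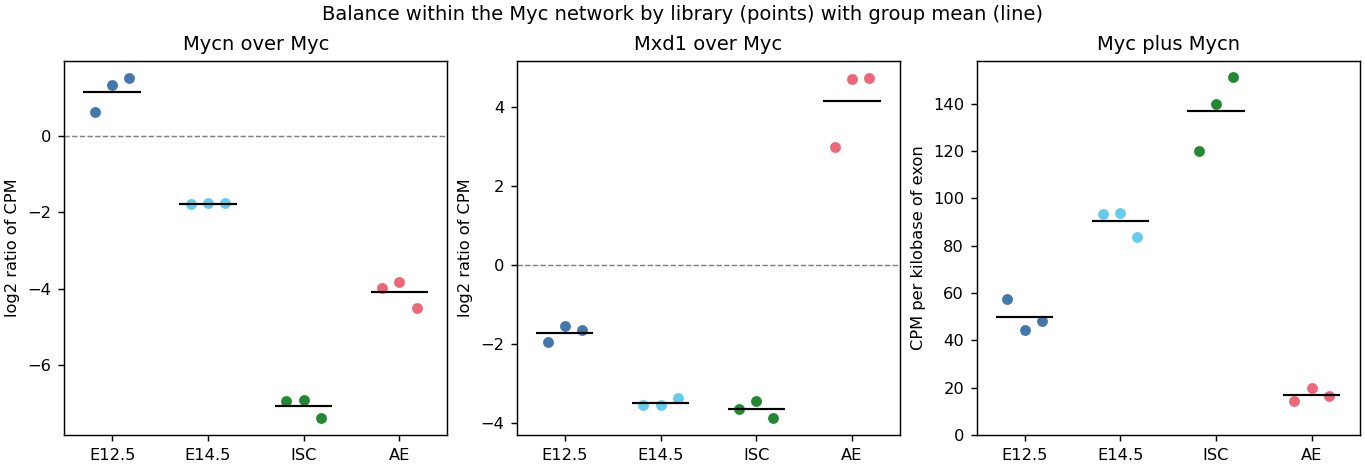
Log2 ratio of Mycn to Myc, log2 ratio of Mxd1 to Myc, and the sum of Myc and Mycn in CPM per kilobase of exon, by library (points) with the group mean (line). Mycn exceeds Myc in the E12.5 libraries alone, Mxd1 exceeds Myc in the AE libraries alone, and the sum is highest in ISC.

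Mxd1, the repressor that pairs with Max in place of Myc, showed the widest range of the 9 genes. It stood at 18, 13.3 and 12.4 CPM in E12.5, at 17.4, 17.5 and 17.8 CPM in E14.5, at 25.8, 34.5 and 27.9 CPM in ISC, and at 298, 1335 and 1159 CPM in AE. Every AE library was above every other library, and AE replicate 1 stood well below replicates 2 and 3. Mxd1 rose 31.6-fold from ISC to AE (adjusted p = 2.00e-07, edgeR), or 42.3-fold without AE replicate 1, and was 53.0-fold higher in AE than in E14.5 within the same listing of multiply aligned reads. ISC stood 2.02-fold above E12.5 (adjusted p = 0.0306, edgeR), a call lost without E12.5 replicates 2 or 3 or ISC replicates 2 or 3 (adjusted p = 0.0831, 0.0950, 0.0903 and 0.0562), with DESeq2 (0.0755) and with limma-voom (0.124). The 1.68-fold difference of ISC from E14.5 was not called (adjusted p = 0.105, edgeR), though its libraries did not overlap, and it passed without AE replicate 1 (adjusted p = 0.000318) and in a fit of those 6 libraries alone (0.000638).

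The ratio of Mxd1 to Myc within a library, with 0.1 CPM added to each, turned over on the villus. Its log2 value was -1.71 ± 0.20 (SD, n = 3) for E12.5 and -3.48 ± 0.11 for E14.5, against -3.65 ± 0.21 for ISC and 4.15 ± 1.00 for AE, and the groups differed by an exact permutation test (p = 0.00026). AE replicates 1, 2 and 3 were at 2.99, 4.71 and 4.73. E14.5 and ISC overlapped in this ratio, and every AE library was above 0.

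Max, the common partner of Myc, Mycn and Mxd1, stood at 104, 75.0 and 116 CPM in E12.5, at 115, 103 and 110 CPM in E14.5, at 126, 119 and 156 CPM in ISC, and at 187, 522 and 542 CPM in AE. It was called in no comparison among E12.5, E14.5 and ISC, and it rose 3.11-fold from ISC to AE (adjusted p = 0.000224, edgeR), or 3.97-fold without AE replicate 1. The 1.36-fold difference of ISC from E12.5 (adjusted p = 0.189) passed in a fit of those 6 libraries alone (0.0268) and without AE replicate 1 (0.0103). AE replicate 1 was again the low library. In that library the 6 enterocyte markers summed to 21455 CPM against 38801 and 39643 CPM in replicates 2 and 3, and the 5 proliferation markers to 1205 against 629.5 and 738 CPM. The 5 Paneth-cell markers summed to 6507 CPM in replicate 1 against 2697 and 2704 CPM in replicates 2 and 3. The part of these differences in the levels of Max and Mxd1 was not tested. In bulk libraries, fewer cells of a type and less RNA per cell cannot be told apart.

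Klf4, known from goblet cells and differentiated villus cells, had the largest fold between AE and the embryonic groups among the 5 Krüppel-like genes. It stood at 30.1, 24.4 and 21.5 CPM in E12.5, at 25.1, 25.4 and 22.3 CPM in E14.5, at 84.3, 68.4 and 51.5 CPM in ISC, and at 205, 297 and 413 CPM in AE. The embryonic stages overlapped, and ISC and AE formed 2 higher steps without overlap. Klf4 rose 2.80-fold from E14.5 to ISC (adjusted p = 7.04e-05, edgeR) and 4.48-fold from ISC to AE (adjusted p = 1.58e-06, edgeR), and AE stood 3.65 ± 0.25 (SE) above E14.5 on the log2 scale. Between the embryonic stages its log2 difference was -0.06 ± 0.23 (SE) and was not called (adjusted p = 0.843, edgeR). The sum of the 7 goblet-cell markers rose too, from 1213 to 1640 CPM in ISC to 17037 to 27673 CPM in AE. Of the 7, 6 were called higher in AE than in ISC and 1 lower, where 32.6% and 35.2% of all genes were. That sum also rose between the embryonic stages, where Klf4 did not, from 22.9 to 38.2 CPM to 175 to 216 CPM. Within AE, replicate 3 had the highest Klf4 and the lowest goblet-cell sum. The part of these markers in the rise of Klf4 was not tested.

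Klf6, a broadly expressed factor induced by growth signals and injury, stood at 156, 101 and 115 CPM in E12.5, at 212, 219 and 234 CPM in E14.5, at 731, 446 and 400 CPM in ISC, and at 539, 490 and 589 CPM in AE. It rose 1.79-fold between the embryonic stages (adjusted p = 0.00389, edgeR) and 2.37-fold from E14.5 to ISC (adjusted p = 0.000121, edgeR), or 1.91-fold without ISC replicate 1, the highest of the 12 libraries. AE and ISC overlapped, with a log2 difference of 0.04 ± 0.20 (SE) and no call (adjusted p = 0.892, edgeR).

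Klf5, which sustains proliferating crypt cells, stood at 156, 140 and 129 CPM in E12.5, at 197, 186 and 183 CPM in E14.5, at 318, 339 and 358 CPM in ISC, and at 264, 290 and 345 CPM in AE. The first 3 groups rose in order without overlap, by 1.33-fold between the embryonic stages (adjusted p = 0.00878, edgeR) and by 0.84 on the log2 scale from E14.5 to ISC (adjusted p = 2.13e-05, edgeR). AE stood 1.13-fold below ISC with overlapping libraries and was not called (adjusted p = 0.188, edgeR). With upper-quartile scaling that fall was 1.30-fold and passed (adjusted p = 0.00667), a scaling that lowers the median of all genes by 0.20 on the log2 scale in this comparison.

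Klf3, a repressor that recruits CtBP, had the narrowest range of group means among the 5 Krüppel-like genes in fold terms, from 191 CPM in E14.5 to 371 CPM in AE. It stood at 219, 194 and 169 CPM in E12.5, at 189, 191 and 194 CPM in E14.5, at 254, 255 and 319 CPM in ISC, and at 277, 383 and 454 CPM in AE. The embryonic stages overlapped, with a log2 difference of -0.02 ± 0.16 (SE, adjusted p = 0.936, edgeR), and AE stood 1.94-fold above E14.5 (adjusted p = 8.92e-05, edgeR). The intermediate steps were less firm. The 1.44-fold rise from E14.5 to ISC (adjusted p = 0.0112, edgeR) was lost without ISC replicate 3 (0.0739), and the 1.42-fold rise from E12.5 to ISC (0.0117) without that library (0.0648) or E12.5 replicate 3 (0.0590). The 1.34-fold rise from ISC to AE, whose libraries overlapped, had adjusted p = 0.0294. It was lost without ISC replicates 1 or 2 (0.100 and 0.103), without AE replicates 2 or 3 (0.0503 and 0.105), when 6 libraries were fitted by themselves (0.0740) and with upper-quartile scaling (0.210).

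Klf15, a regulator of amino acid and glucose metabolism best known from liver and muscle, was scarce throughout. It stood at 1.67, 0.622 and 1.43 CPM in E12.5, at 0.598, 1.15 and 0.791 CPM in E14.5, at 0.570, 0.763 and 0.348 CPM in ISC, and at 0.911, 8.82 and 4.11 CPM in AE. These AE levels rest on 26, 108 and 36 counts, and AE replicate 1 overlapped both embryonic groups. Klf15 was 8.01-fold higher in AE than in ISC (adjusted p = 0.00174, edgeR), or 4.06-fold without AE replicate 2 and 4.32-fold with limma-voom. Against E14.5 it was 5.14-fold higher (adjusted p = 0.00329), or 2.54-fold without AE replicate 2 (0.0544) and 2.79-fold with limma-voom (0.0681). Against E12.5 it was 3.51-fold higher (0.0142), or 1.76-fold without AE replicate 2 (0.216), 2.85-fold without E12.5 replicate 2 (0.0560) and 1.97-fold with limma-voom (0.209). ISC was not called lower than E12.5 (adjusted p = 0.161, edgeR), but was in a fit of those 6 libraries alone (0.0386) and without AE replicate 1 (0.0394).

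By comparison, the 9 genes split as follows. From E12.5 to E14.5, 3 rose (Myc, Klf5 and Klf6), 1 fell (Mycn) and 5 were not called, where 49.2% of all genes tested were called, 23.6% higher and 25.6% lower. From E14.5 to ISC, 5 rose, 1 fell and 3 were not called, where 60.7% of all genes were called, 30.2% higher and 30.6% lower. From ISC to AE, 5 rose, 1 fell and 3 were not called, where 67.8% of all genes were called, 32.6% higher and 35.2% lower. With upper-quartile scaling the split of this last step was 4 up and 2 down, Klf5 being the added fall. ISC against E12.5 had 6 up and 1 down, where 68.5% of all genes were called, 33.9% higher and 34.6% lower. AE had 7 up and 2 down against E14.5, where 78.2% were called, 36.7% higher and 41.5% lower. AE had 7 up and 1 down against E12.5, where 82.1% were called, 38.4% higher and 43.7% lower. The libraries of the groups did not overlap for 4, 8 and 5 of the 9 genes along the 3 steps, where that held for 70.6%, 72% and 66.3% of all genes. For ISC against E12.5 it was 8 of 9 beside 73.9%, for AE against E14.5 8 of 9 beside 81.5%, and for AE against E12.5 7 of 9 beside 82.5%. Against these shares, the counts are no result about the 9 genes. The median log2 change of the 9 genes was 0.15, 0.75 and 0.43 along the 3 steps, where that of all genes tested was -0.02, 0.00 and -0.05.

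**Figure D3:**
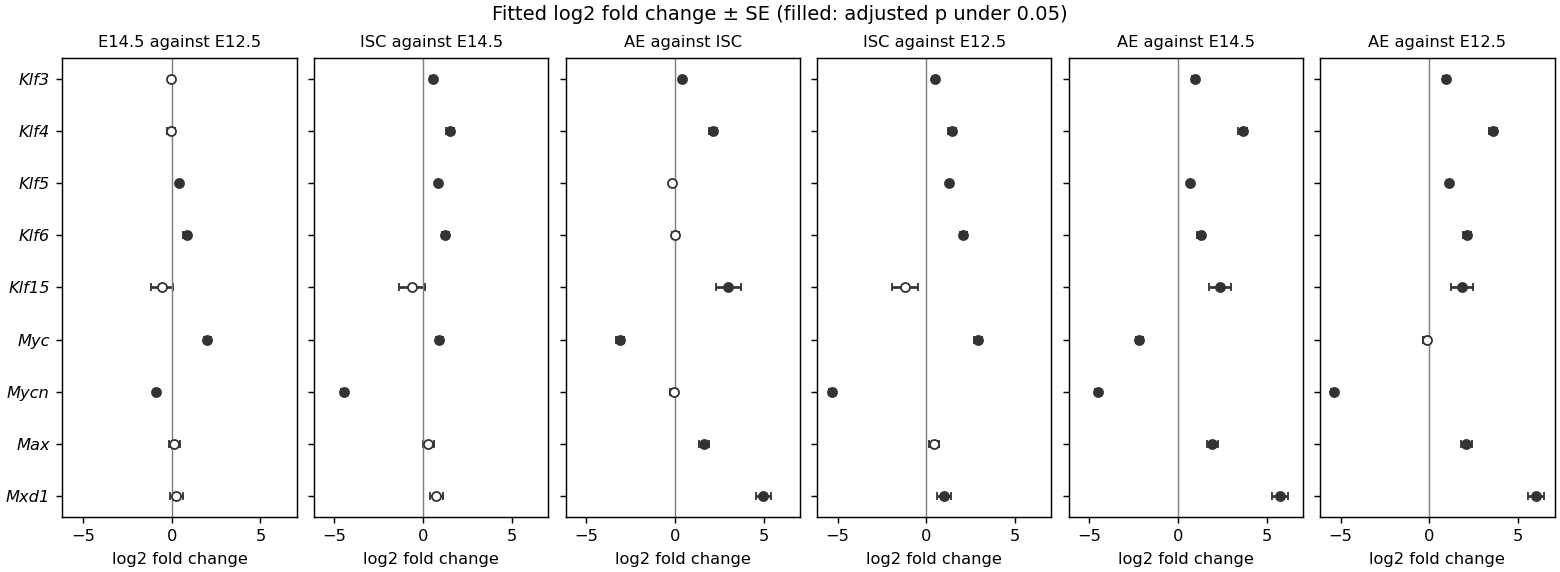
Fitted log2 fold change of each of the 9 genes in the 6 comparisons, first group over second, with bars for the standard error and filled points for an adjusted p under 0.05. Mxd1 lies farthest to the right in the 3 comparisons with AE, and Mycn lies farthest to the left in the 4 comparisons of an adult with an embryonic group.

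Promoter sequences are shown for the 5 of the 9 genes that were called higher in AE than in ISC, so that the letters upstream of genes rising together can be compared. RefSeq entries matched 7 of the 9 genes, and those of Klf5 and Myc did not match. Each line gives the 250 bases before the start site on the gene's own strand, 5′ to 3′, from build GRCm38.p6. Capitals mark the E-box CACGTG, the GC box GGGCGG or its complement CCGCCC, and the CCACCC box or its complement GGGTGG, with overlapping matches merged.
Klf3, chr5:64803271-64803520, plus strand: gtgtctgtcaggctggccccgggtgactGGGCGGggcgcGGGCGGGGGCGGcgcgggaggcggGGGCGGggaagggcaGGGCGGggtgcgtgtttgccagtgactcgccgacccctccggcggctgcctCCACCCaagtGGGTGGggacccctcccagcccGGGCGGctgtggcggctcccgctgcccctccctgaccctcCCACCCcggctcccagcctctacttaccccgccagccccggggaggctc
Klf4, chr4:55532476-55532725, minus strand: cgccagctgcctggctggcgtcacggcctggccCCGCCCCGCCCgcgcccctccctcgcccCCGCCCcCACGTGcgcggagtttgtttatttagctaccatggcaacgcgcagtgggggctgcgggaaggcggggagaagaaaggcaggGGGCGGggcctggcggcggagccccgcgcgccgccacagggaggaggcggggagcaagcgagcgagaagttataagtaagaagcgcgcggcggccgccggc
Klf15, chr6:90462326-90462575, plus strand: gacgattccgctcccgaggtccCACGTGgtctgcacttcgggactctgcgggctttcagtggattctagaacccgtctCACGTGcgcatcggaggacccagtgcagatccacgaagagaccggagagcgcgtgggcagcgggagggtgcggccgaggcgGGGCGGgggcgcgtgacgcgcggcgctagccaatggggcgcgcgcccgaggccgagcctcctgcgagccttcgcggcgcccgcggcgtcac
Mxd1, chr6:86669160-86669409, minus strand: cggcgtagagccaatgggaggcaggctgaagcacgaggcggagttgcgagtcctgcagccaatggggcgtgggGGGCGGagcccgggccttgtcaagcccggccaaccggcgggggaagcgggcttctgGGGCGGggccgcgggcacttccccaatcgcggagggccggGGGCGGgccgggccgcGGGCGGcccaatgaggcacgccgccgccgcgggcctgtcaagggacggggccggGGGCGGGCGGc
Max, chr12:76962249-76962498, minus strand: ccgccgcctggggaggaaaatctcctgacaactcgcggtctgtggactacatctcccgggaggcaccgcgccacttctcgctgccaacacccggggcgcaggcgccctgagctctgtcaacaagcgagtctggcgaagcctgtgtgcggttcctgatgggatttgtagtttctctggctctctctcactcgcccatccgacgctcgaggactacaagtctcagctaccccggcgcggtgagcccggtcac
Klf15 held 2 E-boxes, whose first letters lie 228 and 172 bases before the start, Klf4 held 1, at 182 bases, and Klf6, not shown, held 1, at 43 bases. That made 3 of 7 member promoters, where 6.02% of 32851 promoters of the same length held the motif. Klf3 and Mxd1 held 6 GC boxes each and Klf4 held 4, and 6 of 7 members held at least 1, where 32.7% of all promoters did. A CCACCC box or its complement GGGTGG stood in 1 of 7, Klf3, with 3 matches, where 28.1% of all promoters held it. Max held none of the 3 motifs in this window. The 7 windows were 54.8% to 78.4% G and C. The promoters set beside them were matched in length and not in G and C, so the shares cannot be read as enrichment. A match is a description of letters only.

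The rest of the Klf family was read from a list of 12 genes, of which 10 passed the filter on low counts and Klf14 and Klf17 did not. Summed per kilobase of exon, the 17 Klf genes rose from 121 ± 15.7 CPM per kilobase in E12.5 (SD, n = 3) and 155 ± 0.892 in E14.5 to 313 ± 52.3 in ISC and 368 ± 46.1 in AE. Klf3, Klf4, Klf5, Klf6 and Klf15 made up on average 67.1% of that sum in E12.5 and 72.2% in E14.5, and 74.1% in ISC and 85.4% in AE. Klf6 held the largest share of the 5 in E14.5, ISC and AE, at 32.5% ± 1.54, 37.6% ± 6.21 and 33.5% ± 2.18, and stood level with Klf5 in E12.5, at 23.1% ± 2.47 against 22.5% ± 1.28. Klf4 went from 7.10% ± 0.827 of the family in ISC to 26.8% ± 6.45 in AE.

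Of the 10 other Klf genes tested, 2 rose and 2 fell from E12.5 to E14.5, 5 rose and 3 fell from E14.5 to ISC, and 0 rose and 6 fell from ISC to AE. Over all genes 23.6% rose and 25.6% fell in the first step, 30.2% and 30.6% in the second, and 32.6% and 35.2% in the last. The median log2 change of the 10 genes in the last step was -0.83, where that of all genes was -0.05. Klf2, a factor of quiescent endothelium and lymphocytes, rose 98.5-fold from E14.5 to ISC, from 0.116 ± 0.0161 to 11.8 ± 5.46 CPM (SD, n = 3), and fell 2.72-fold from ISC to AE with overlapping libraries, or 4.14-fold without AE replicate 1. The 6 endothelial markers summed to 0.348 to 0.817 CPM in ISC, with Cdh5 at 0 in all 3 libraries, and to 2.50 to 7.03 CPM in E14.5. The 7 immune markers summed to 20.2 to 21.8 CPM in ISC and 19.5 to 21.3 CPM in E14.5. Among them, singled out after their values were seen, Cd3e of T cells averaged 0.505 CPM in ISC and 0.00831 in E14.5, and Ptprc of blood cells 0.336 and 0.177. Cd68 and Csf1r went the other way, at 10.8 and 0.724 CPM in ISC and 15.9 and 1.57 CPM in E14.5. Of the 7 immune markers, 2 were called higher in ISC than in E14.5, 0 lower and 5 neither. The part of endothelial and immune cells in the rise of Klf2 was not tested. Klf9, a glucocorticoid-responsive factor, rose 21.8-fold from E14.5 to ISC, to 34.8 CPM. Klf12 and Klf7 went the other way, from 60.9 and 62.4 CPM in E12.5 to 4.39 and 17.1 CPM in AE, falls of 14.0-fold and 3.67-fold.

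**Figure D4:**
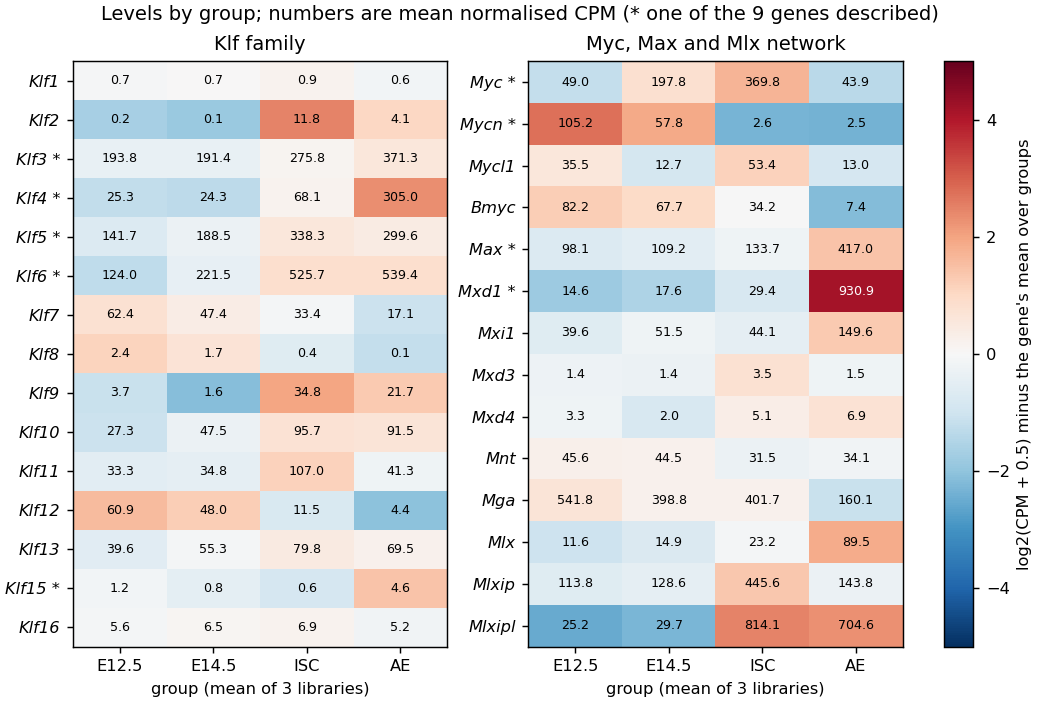
Mean normalised CPM of 3 libraries per group, printed in each cell, for Klf genes and for genes of the Myc, Max and Mlx network that passed the filter, with colour for log2(CPM + 0.5) minus the gene's mean over the 4 groups. Klf7, Klf8 and Klf12 fade from left to right, as Mycn and Bmyc do, and Mxd1 stands out in AE.

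The network around Max was read from 10 further genes, all tested. From E12.5 to E14.5, 1 rose and 3 fell, from E14.5 to ISC 6 rose and 2 fell, and from ISC to AE 2 rose and 5 fell. Over all genes the shares called higher and lower were 23.6% and 25.6%, 30.2% and 30.6%, and 32.6% and 35.2% in these steps. Mycl1, the third Myc paralog, stood at 35.5, 12.7, 53.4 and 13 CPM on average in E12.5, E14.5, ISC and AE. It fell 2.81-fold between the embryonic stages, where Myc rose, rose 4.22-fold from E14.5 to ISC and fell 4.04-fold from ISC to AE. Bmyc, a Myc relative that lacks the DNA-binding part, fell from 82.2 CPM in E12.5 to 7.44 CPM in AE, by 11.3-fold. Mxi1, a second repressor of the Mxd group, rose 3.39-fold from ISC to AE with Mxd1, to 150 CPM.

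Mlxipl and Mlx belong to the glucose-responsive branch of the network, and their transcripts differed in size of change. Mlxipl, encoding the glucose-responsive factor ChREBP, rose 27.5-fold from E14.5 to ISC, to 814 CPM, and stood at 705 CPM in AE, which was not called against ISC. Mlx, its partner, rose at each of the 3 steps to 89.5 CPM in AE, by 1.28-fold, by 1.57-fold and by 3.85-fold. The first of these was lost without E14.5 replicate 3 (adjusted p = 0.0547, edgeR). Over the 20 genes of both lists, 8 were called between the embryonic stages, or 4 without E14.5 replicate 3 and 13 when 6 libraries were fitted by themselves. Of all genes tested 49.2% were called in this comparison, and their number went from 7544 to 10039 in the fit of 6 libraries.

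Genes that Myc is known to activate, read from a list of 20, did not rise in number wherever Myc rose. Between the embryonic stages, where Myc rose and Mycn fell, 5 rose, 1 fell and 14 were not called, with a median log2 change of 0.18. Over all genes 23.6% were called higher and 25.6% lower in this comparison. With 6 libraries fitted by themselves the counts of the list were 12 up and 2 down, where all genes called went from 7544 to 10039. From E14.5 to ISC, where Myc rose again, 0 rose and 11 fell, with a median of -0.54, where 30.6% of all genes were called lower. Srm, the spermidine synthase gene, fell 2.77-fold. From ISC to AE, where Myc fell and Mxd1 rose, 15 fell and 1 rose, with a median of -1.50, where 35.2% of all genes were called lower. Nop56, encoding a ribosomal RNA processing protein, fell 4.81-fold, and the riser was Ldha, the lactate dehydrogenase gene, at 5.82-fold. Against E14.5, 19 of 20 were lower in AE, led by Srm at 8.63-fold and by Npm1, the nucleophosmin gene, at 6.32-fold, where 41.5% of all genes were called lower. The remaining gene was Ldha, higher by 1.37-fold, which was lost with upper-quartile scaling (adjusted p = 0.137).

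Myc, Klf4 and Klf6 are known to respond fast to growth signals and handling, so immediate-early genes were read from a list of 18. Of these, 15 rose and 0 fell from E14.5 to ISC, and 1 rose and 12 fell from ISC to AE. Over all genes 30.2% rose and 30.6% fell in the first of these comparisons, and 32.6% rose and 35.2% fell in the second. The median log2 changes of the list were 2.70 and -1.34, where those of all genes were 0.00 and -0.05. Their sum was 640.3 to 1036 CPM in E12.5 and 1085 to 1301 in E14.5, and stood at 6694 to 10959 in ISC and 2373 to 5030 in AE. The heat-shock gene Hspa1a stood at 161 CPM in ISC and 0.626 CPM in E14.5. Per the labels' protocols, the adult gut was washed in EDTA and the embryonic gut was not, collagenase is named for embryonic gut and crypts, and no enzyme is named for villi. Within groups, the library with the highest sum was not the highest in these genes throughout. ISC replicate 1 had the highest sum of its group with the highest Klf4 and Klf6 and the lowest Myc. E12.5 replicate 1 had the highest sum of its group with the highest Klf4, Klf6 and Myc. AE replicate 1 had the highest sum of its group, at 5030 CPM, with the lowest Klf4, at 205 CPM, and the lowest Myc, at 37.4 CPM, while its Klf6 lay between the other two. E14.5 replicate 3 had the highest sum of its group, at 1301 CPM, with the lowest Klf4 and Myc, at 22.3 and 183 CPM, and the highest Klf6, at 234 CPM. The part of the immediate-early difference in the levels of Klf4, Klf6 and Myc was not tested.

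**Figure D5:**
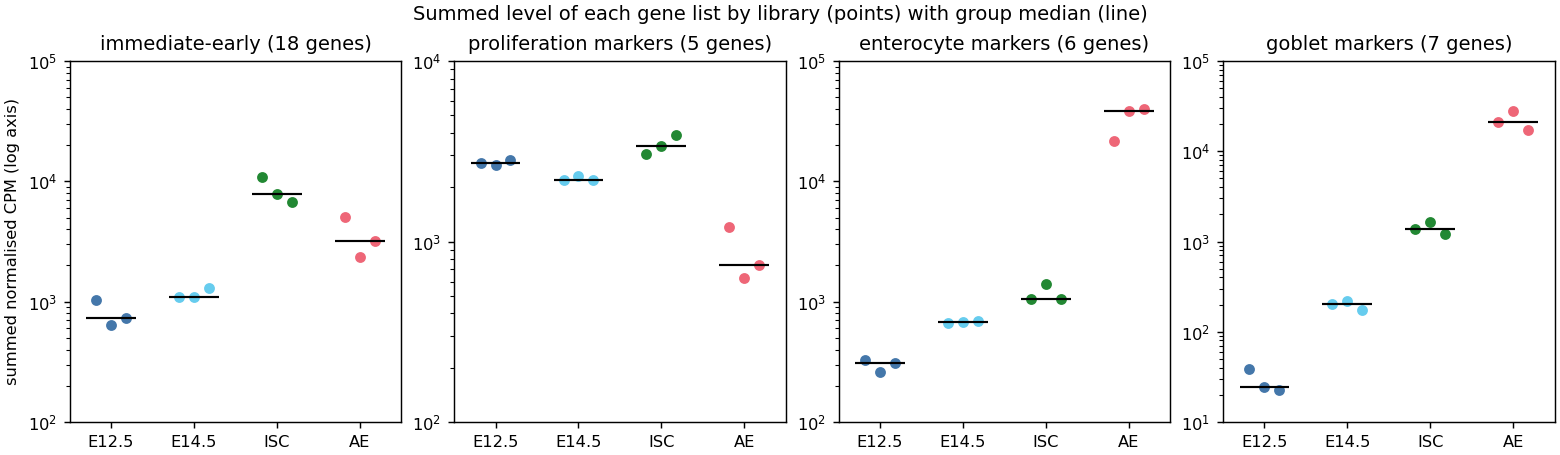
Summed normalised CPM on log axes for immediate-early genes and for proliferation, enterocyte and goblet-cell markers, by library (points 1 to 3 from left to right) with the group median (line). The immediate-early sum is highest in ISC, and AE replicate 1 has the lowest enterocyte sum and the highest proliferation sum of its group.

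Proliferation markers summed to 2667 to 2820 CPM in E12.5 and 2194 to 2297 in E14.5. The sums were 3041 to 3873 CPM in ISC and 629.5 to 1205 in AE. The group with the lowest Myc plus Mycn total and the highest Mxd1 was thus also the lowest in these 5 genes. Mki67 averaged 2118 CPM in ISC and 1015 in E14.5, while Ccnb1 averaged 71.2 and 123 CPM and Cdk1 62.0 and 88.7 CPM. Of the 5, 1 was called higher in ISC than in E14.5, 2 lower and 2 neither. Over all genes 30.2% were called higher and 30.6% lower. Mesenchymal markers, 10 in number, summed to 249 to 325 CPM in E14.5 against 23.0 to 32.3 in E12.5, 1.04 to 2.85 in ISC and 0.327 to 1.68 in AE, with Col6a1 and Des at 0 in ISC. All 10 were called higher in E14.5 than in E12.5, where 23.6% of all genes tested were. Myc, Klf5 and Klf6 rose in the same comparison. The part of the mesenchymal markers in those rises was not tested.

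Among 8789 tested genes of at least 20 CPM in their highest group (8790 for Klf15), the pattern most like each of the 9 over all 12 libraries was found by the root mean square difference of centred log2(CPM + 0.5). The nearest were Fibp to Klf3 at 0.10, Cmpk2 to Klf4 at 0.22, Cc2d1a to Klf5 at 0.12, Myd88 to Klf6 at 0.24 and Ccrn4l to Klf15 at 0.38. On the Myc side they were Esrrg to Myc at 0.41, Skida1 to Mycn at 0.19, Gtpbp2 to Max at 0.26 and Apol9a to Mxd1 at 0.25. By this measure Myc had the least close neighbour and Klf3 the closest. The measure takes in the size of a change as well as its shape. Genes of narrow range, such as Klf3, therefore lie near other genes of narrow range. Esrrg, encoding an orphan nuclear receptor, averaged 41.7 CPM in E12.5, 204 in ISC and 31.5 in AE, and Skida1 averaged 26.3 CPM in E12.5 and 0.132 in AE. Within the 9, the closest pair was Klf3 and Klf5, at 0.30, with the same limit.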

How the data were processed

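RNA-seq of 12 libraries was deposited as whole-number counts per gene. Per the submitters' processing notes, the tools were bcl2fastq 1.8.4, STAR 2.3.1z13, SAMtools 1.2, HTSeq 0.6.1p1 and DESeq2 1.6.3, with build mm9. The annotation and whether strand was used were not given in the sources used here. In each file 5 rows that name no gene were left out; the row for reads in no feature held 33.4% to 58.1% of all reads listed.

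Counts were fitted with edgeR 4.0.16 (R 4.3.3) over all 4 groups, with filterByExpr, trimmed-mean scaling, the quasi-likelihood F test and Benjamini-Hochberg adjustment over 15342 genes. Every adjusted p in the report is from this fit unless limma-voom, DESeq2, another scaling, a library left out or a fit of 6 libraries is named with it. Adult replicates are separate guts and E12.5 replicates separate pools, and the pool size at E14.5 is not given in the sources used here. Levels per kilobase used the union exon length of GENCODE M21. On data simulated for AE against ISC (14921 genes), 94% of genes raised 2-fold and 84% of those lowered to 0.5 were recovered. For genes raised 1.5-fold the share was 24%. The simulation gave all genes and groups 1 common spread. In AE the SD of the 9 genes ran from 9.13% of the mean for Klf6 to 86.2% for Klf15. The shares recovered need not hold for the more variable genes. Alternatives were other scalings, no filter, DESeq2 1.42.0, limma-voom 3.58.1, a fit of the 6 libraries compared, a replicate block and each library left out. The 9 genes and the lists were chosen with earlier results of these data known. Named list genes are the 2 largest rises and 2 largest falls called per list and comparison with at least 5 CPM in the higher group; a few are given in the text.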

Additional observations from a re-analysis of the deposited data

How the results depend on the processing

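Of 1026 values recomputed for the 9 genes under 19 alternatives, 980 kept direction and side of the threshold, and 34 of 40 calls were kept by every alternative. No called change reversed. Uncalled log2 differences that reversed were these. Klf3 in E14.5 against E12.5 was 0.00225 without the filter and 0.024 in the 6 libraries. Mycn in AE against ISC was 0.022 with relative log scaling and 0.013 with DESeq2, and Klf6 was -0.16 with upper-quartile scaling. Leaving out single libraries gave ranges across 0. In E14.5 against E12.5 these were -0.11 to 0.082 for Klf3, -0.17 to 0.086 for Klf4 and -0.0033 to 0.29 for Max. In AE against ISC they were -0.27 to 0.11 for Mycn and -0.091 to 0.34 for Klf6, and in AE against E12.5 -0.31 to 0.16 for Myc. In the 6 libraries of E14.5 against E12.5, genes called went from 8 to 13 among the other Klf and network genes, from 6 to 14 among Myc targets and from 6 to 13 among immediate-early genes, where fewer libraries share the estimate of spread. Over all genes the number called went from 7544 to 10039 in the same fit, so a gain was not particular to these lists. Leaving out single libraries gave 4 to 11 for the other Klf and network genes. The cause of these changes was not tested. Recomputing the Myc target and immediate-early lists was chosen after seeing the data.

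With the replicate block no member's call changed, and 8 other Klf and network genes were again called in E14.5 against E12.5. Same-numbered libraries deviated together little, with correlations from -0.11 to 0.14 and 1 of 18 over 0.1. Those of ISC with AE were 0.035, 0.14 and 0.072. With 3 libraries per group these values cannot settle whether the numbers pair the samples, and the fit took them as unpaired. Upper-quartile scaling moved the median of all genes by -0.20, -0.24 and -0.26 in AE against ISC, E14.5 and E12.5. Depth limits Klf15 most, at 8 to 108 counts per library.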
